A study of Mus musculus with 14 samples.

Results

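The genes Mrc1, Cd163, Lyve1, Pf4, Ms4a7 and Cbr2 are markers of border-associated macrophages, and their normalized counts were read in 14 libraries of dorsal horn (DH) microglia. The 6 genes were chosen by symbol as known markers of these macrophages, with the counts of the same libraries already in view, so that their levels and differences are given as descriptions. All 6 were among the 14329 genes of the deposited values, and 4 of them had at least 10 reads in at least 7 libraries, while Lyve1 and Ms4a7 reached 10 reads in 6 libraries each. The libraries came from CD45low CD11b+ CX3CR1+ cells sorted from the dorsal lumbar spinal cord of 6-month-old mice on a C57BL/6 background, after the meninges had been taken off. WT mice given control serum gave 3 libraries (WT Control ST) and WT mice given K/BxN serum gave 4 (WT K/BxN ST). TASTPM mice, a heterozygous line in which the Thy-1 promoter, active in neurons, drives mutant human transgenes including APP, gave 3 libraries after control serum (TASTPM Control ST) and 4 after K/BxN serum (TASTPM K/BxN ST). K/BxN serum transfer (ST) passes on the autoantibodies of arthritic K/BxN mice and causes a joint inflammation in the recipient, and the control serum was taken from mice without arthritis. Libraries are numbered within their group, for TASTPM K/BxN ST as in the labels and otherwise in the order of the deposited columns. By the study's methods the replicates are individual mice, and the labels give no sequencing batch.

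Border-associated macrophages live at the edges of the nervous system, in the meninges, the choroid plexus and the spaces around blood vessels, whereas microglia live within the tissue. Both carry CD11b and CX3CR1, and border-associated macrophages are told apart by scavenger and endocytic receptors such as those encoded by Mrc1, Cd163 and Lyve1. Ly6c2, which encodes the Ly6C antigen of classical monocytes, served as the comparison gene, because monocytes that enter a tissue can also turn on macrophage genes. In these bulk libraries, fewer cells of a type and less RNA per cell cannot be told apart.

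The libraries held 14223015 to 20239175 reads on genes, and 3 reads, taken as the smallest detectable number, corresponded to 2.51 to 3.58 normalized counts. The microglia genes Csf1r, Cx3cr1 and Tmem119 were abundant throughout, and the 14 microglia markers took 2.38% to 8.76% of the reads. Libraries 1 and 2 of WT K/BxN ST and libraries 1 and 2 of TASTPM K/BxN ST stood apart from the other 10. They had 12898 to 29133 normalized counts of Ly6c2, against 1.87 to 17.8 in the others. They also had the 4 lowest shares of microglia markers, 2.38% to 5.58% against 6.83% to 8.76%. The gating described for the sort leaves out Ly6C+ and CCR2+ cells. The differences between groups are therefore also given without these libraries, an alternative chosen after the data had been seen.

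The members lie on different chromosomes in the GRCm39 assembly: Mrc1 on the plus strand of chromosome 2 (chr2:14234151-14336926), Pf4 on the plus strand of chromosome 5 (chr5:90918479-90922110) and Cd163 on the plus strand of chromosome 6 (chr6:124281606-124307560). On the minus strand are Lyve1 (chr7:110448585-110462460), Cbr2 (chr11:120620312-120622940) and Ms4a7 (chr19:11298403-11313510). No exon of another annotated gene overlapped theirs. Cbr2 shared stretches of at least 100 bases with Gm11771 and Gm74454, so its reads may be divided between these copies and its level is uncertain. RefSeq promoter windows, 250 bases before to 50 bases after a start site, were at hand for 5 of the 6 genes, and those of the 4 genes that passed the filter are shown as the start regions of the genes described next. The table is built on GRCm38.p6, and each window matched GRCm39 exactly once, at chr2:14233975-14234274, chr5:90920044-90920343, chr6:124281360-124281659 and, on the minus strand, chr11:120622798-120623097. They run 5′ to 3′ along the gene, and capitals mark matches to the motifs searched on both strands:
Mrc1: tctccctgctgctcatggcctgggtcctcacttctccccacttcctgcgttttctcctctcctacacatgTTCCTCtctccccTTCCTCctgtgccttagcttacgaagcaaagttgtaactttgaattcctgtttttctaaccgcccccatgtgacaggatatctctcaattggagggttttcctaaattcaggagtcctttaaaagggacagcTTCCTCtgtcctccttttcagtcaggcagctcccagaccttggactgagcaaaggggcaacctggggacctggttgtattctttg
Pf4: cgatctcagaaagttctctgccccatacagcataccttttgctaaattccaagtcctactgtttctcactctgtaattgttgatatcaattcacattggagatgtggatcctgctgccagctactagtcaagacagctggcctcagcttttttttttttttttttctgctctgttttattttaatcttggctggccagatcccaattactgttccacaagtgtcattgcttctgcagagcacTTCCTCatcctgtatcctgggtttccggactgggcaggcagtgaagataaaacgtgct
Cd163: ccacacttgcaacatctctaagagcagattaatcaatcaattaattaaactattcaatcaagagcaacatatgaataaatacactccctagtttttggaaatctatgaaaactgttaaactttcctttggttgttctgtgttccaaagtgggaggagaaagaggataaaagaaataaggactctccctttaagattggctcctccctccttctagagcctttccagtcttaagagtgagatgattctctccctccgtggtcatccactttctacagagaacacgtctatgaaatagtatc
Cbr2: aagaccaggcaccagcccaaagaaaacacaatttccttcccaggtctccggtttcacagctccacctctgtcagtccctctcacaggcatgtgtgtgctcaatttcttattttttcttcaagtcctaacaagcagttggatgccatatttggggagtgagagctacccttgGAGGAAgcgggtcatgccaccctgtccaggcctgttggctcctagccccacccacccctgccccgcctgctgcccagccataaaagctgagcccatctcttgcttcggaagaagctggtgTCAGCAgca

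The PU.1 core GAGGAA, bound by an ETS factor of all myeloid cells, was found 3 times in the Mrc1 window, 1 time each in those of Pf4 and Cbr2, and 0 times in that of Cd163. It was also found 1 time in the first of 2 windows of Ms4a7 and 0 times in the second. Of 32851 mouse promoter windows of the same length, 28.3% held it. The MAF half-site TGCTGA was found 1 time, in the Cbr2 window, and 19.5% of all windows held it. TATAAA was found in none of the 6 windows of the 5 genes and in 13.6% of all windows. A motif of this length is common by its letters alone, and a match is not a binding site.

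Mrc1 encodes the mannose receptor CD206, an endocytic receptor for glycoproteins. Among WT mice, the 4 K/BxN ST libraries held 942, 393, 0 and 1.09 normalized counts and the 3 Control ST libraries 115, 0 and 118. Among TASTPM mice, counts of 317, 294, 599 and 57.5 followed K/BxN serum and counts of 38.6, 32.2 and 104.5 followed control serum. Mrc1 was the member found most widely, with at least 10 reads in 11 of 14 libraries, and in TASTPM 3 of 4 K/BxN ST libraries lay above every Control ST library. In order, the group means were WT K/BxN ST (334 ± 446, SD, n = 4), TASTPM K/BxN ST (317 ± 222, n = 4), WT Control ST (77.9 ± 67.5, n = 3) and TASTPM Control ST (58.4 ± 40.0, n = 3), and no neighbours in this order were separated beyond their spread.

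Cd163 encodes the scavenger receptor that takes up complexes of haemoglobin and haptoglobin. After K/BxN serum the WT libraries held 479, 205, 0 and 0 normalized counts, and after control serum 0.937, 3.35 and 0. The TASTPM libraries held 412, 210, 0 and 30.5 after K/BxN serum and 12.53, 18.9 and 253 after control serum. WT Control ST was thus at or near the level of 3 reads in each library, while all 3 TASTPM Control ST libraries lay above it. The K/BxN ST groups had like means, 171 ± 227 for WT and 163 ± 190 for TASTPM (SD, n = 4 each), above 94.97 ± 137 in TASTPM Control ST and 1.43 ± 1.73 in WT Control ST (n = 3 each), and again no neighbours were separated beyond their spread.

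Lyve1 encodes a hyaluronan receptor of lymphatic endothelium and of macrophages along vessels. WT libraries held 306, 148, 0 and 0 normalized counts after K/BxN serum and had 0 reads each after control serum. TASTPM libraries held 331, 286, 2.35 and 1.13 after K/BxN serum and 0, 476 and 351 after control serum. Lyve1 was either above 100 or at the level of 3 reads and below, with nothing between. It was the only member whose highest value was in a control serum library and whose highest group mean was that of TASTPM Control ST (276 ± 247, SD, n = 3), followed by TASTPM K/BxN ST (155 ± 178) and WT K/BxN ST (114 ± 146, n = 4 each).

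Pf4 encodes the chemokine CXCL4, which platelets store in quantity and tissue macrophages also make. WT libraries held 576, 146, 0 and 0 normalized counts after K/BxN serum, against 0, 22.6 and 26.7 after control serum. TASTPM libraries held 105, 161, 27.0 and 0, against 0, 14.4 and 48.2. The 4 highest values were those of the 4 libraries with high Ly6c2, and each group had at least 1 library at 0. The means were 181 ± 273 and 16.5 ± 14.4 among WT and 73.2 ± 73.4 and 20.9 ± 24.7 among TASTPM libraries. Of 7 platelet markers, 2 were in the table. Gp1ba had no read in 8 of the 14 libraries, so that the share of the list rested almost wholly on Gp9. Gp9 ranged from 270 to 982 over the 14 libraries. Its lowest value was in library 1 of TASTPM K/BxN ST, which also had the lowest share of microglia markers (2.38%). The 2 genes took 0.00164% to 0.00377% of the reads in the 4 libraries with high Ly6c2 and 0.00177% to 0.00569% in the other 10. Whether platelets gave any of the Pf4 reads was not tested.

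Ms4a7 encodes a membrane protein of the Ms4a family found in tissue macrophages. In the WT mice K/BxN serum was followed by 400, 182, 0 and 0 normalized counts and control serum by 0.937, 64.5 and 0. In the TASTPM mice the counts were 303, 95.1, 1.17 and 1.13, against 0, 0 and 69.1. Its 4 highest values were again those of the libraries with high Ly6c2, and outside them 2 libraries, 1 of each genotype given control serum, were above the level of 3 reads. The means of these groups were 145 ± 190, 21.8 ± 37.0, 100.01 ± 142 and 23.0 ± 39.9, in this order.

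Cbr2 encodes a carbonyl reductase. The WT libraries held 640, 622, 0 and 0 normalized counts after K/BxN serum and 18.7, 0 and 3.82 after control serum, and the TASTPM libraries 286, 180, 0 and 16.9 after K/BxN serum and 20.9, 75.5 and 121 after control serum. As for Cd163, every TASTPM Control ST library was above every WT Control ST library. Unlike for Cd163, the libraries with high Ly6c2 held the 4 highest values of Cbr2. The means ran from 315 ± 364 for WT K/BxN ST over 121 ± 137 for TASTPM K/BxN ST and 72.4 ± 50.05 for TASTPM Control ST to 7.52 ± 9.91 for WT Control ST.

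**Figure D1:**
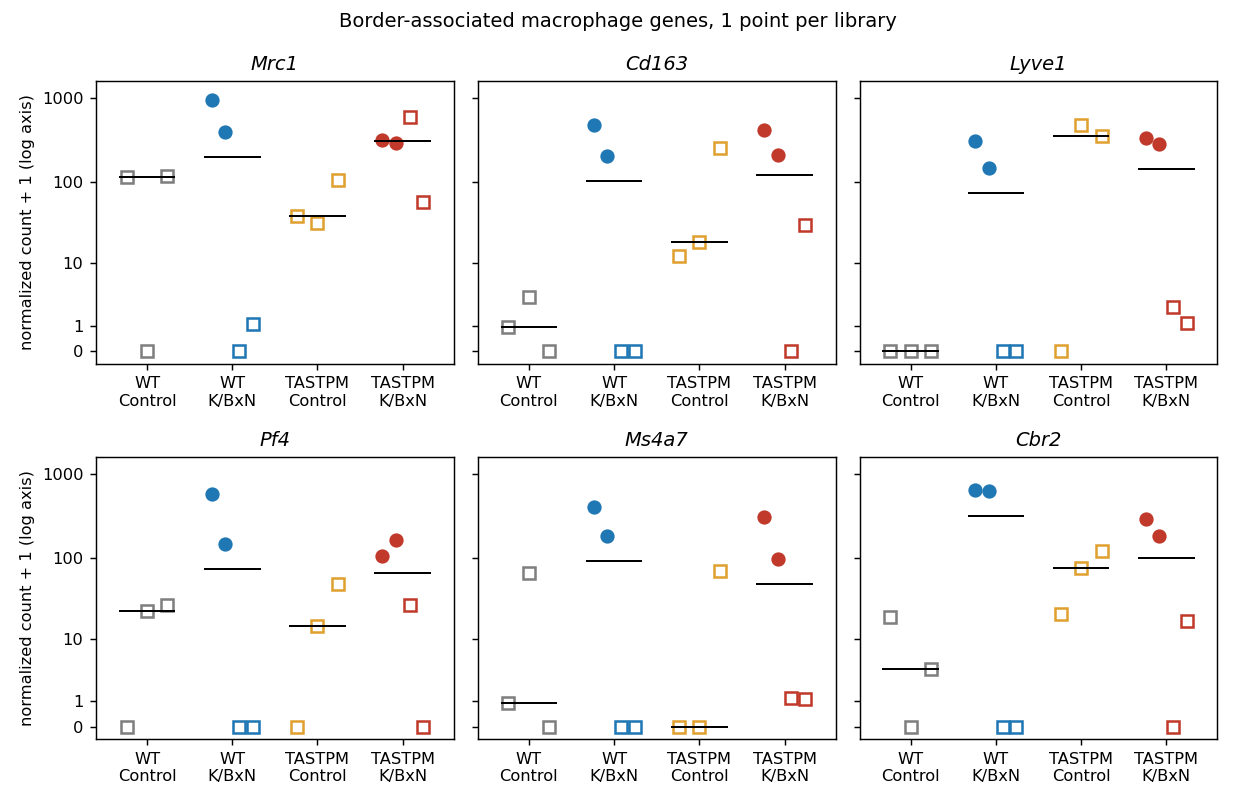
Normalized count plus 1, on a log axis, of each of the 6 genes in each library, by group; filled circles are the 4 libraries with Ly6c2 above 10000, open squares the other 10, and black lines the group medians. In the WT K/BxN ST panels the 2 filled circles lie between 146 and 942, and the 2 open squares at 0 or 1.09.

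Per kilobase of exon, the mean level over the 14 libraries was 107 normalized counts for Cbr2, 32.7 for Pf4, 32.6 for Lyve1, 27.5 for Mrc1, 20.9 for Cd163 and 17.9 for Ms4a7. The spread over libraries of each gene, from 0 to between 86.3 for Cd163 and 481 for Cbr2, was wider than the distance between any neighbours in this order. As a set, the members were a small part of the libraries, between 0% and 0.0198% of the reads. In library 3 of WT K/BxN ST they had 0 of its reads, which allows a share of up to 2.70e-05% (95% Wilson interval, counting error only).

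Added over the 6 genes, WT libraries held 3343, 1695, 0 and 1.09 normalized counts after K/BxN serum and 136, 90.5 and 149 after control serum. TASTPM libraries held 1753, 1226, 630 and 107 after K/BxN serum and 72.1, 617 and 947 after control serum. The 4 libraries with high Ly6c2 had the 4 highest sums, and each had at least 10 reads of all 6 members. The remaining WT K/BxN ST libraries had the 2 lowest sums of all 14, below every Control ST library. Among the other 10 libraries, library 3 of TASTPM Control ST, with 7.27 normalized counts of Ly6c2, also had at least 10 reads of all 6, and library 2 of TASTPM Control ST, with 17.8 of Ly6c2, had 5 of the 6. The WT Control ST libraries had 2 members each at this level.

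**Figure D2:**
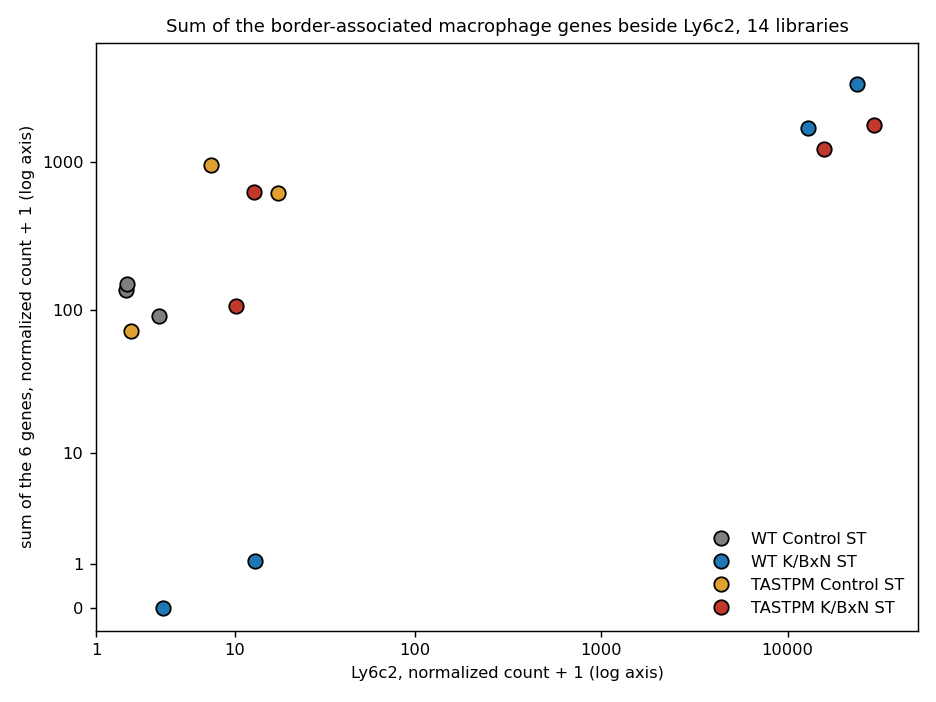
Sum of the normalized counts of the 6 genes (vertical) beside the normalized count of Ly6c2 (horizontal) in the 14 libraries, both plus 1 on log axes, coloured by group. The 4 points on the right have 1226 to 3343 counts over the 6 genes, while the 10 points on the left reach from 0 to 947.

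Within the libraries with high Ly6c2, the sum over the members was 14.2% and 13.1% of the Ly6c2 count in libraries 1 and 2 of WT K/BxN ST and 6.02% and 7.84% in libraries 1 and 2 of TASTPM K/BxN ST. These are ratios of normalized counts without a correction for gene length. Because the libraries fall into 2 separate sets by Ly6c2, no correlation over all of them is given. Among the 10 with little Ly6c2, the sum over the members ranged from 0 to 947 while Ly6c2 ranged from 1.87 to 17.8, a span of few reads.

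The make-up of the sum, in normalized counts uncorrected for gene length, differed between the 7 libraries in which it reached 500. In library 3 of TASTPM K/BxN ST, Mrc1 made up 95.1% and Pf4 4.29%, and Cd163 and Cbr2 had no read. In library 2 of TASTPM Control ST, Lyve1 made up 77.2% and Cbr2 12.2%, with no read of Ms4a7. Library 3 of TASTPM Control ST held 37.0% Lyve1, 26.8% Cd163, 12.8% Cbr2, 11.04% Mrc1, 7.29% Ms4a7 and 5.09% Pf4. In the libraries with high Ly6c2, no member was above 36.7%, the share of Cbr2 in library 2 of WT K/BxN ST, or below 5.99%, that of Pf4 in library 1 of TASTPM K/BxN ST. A sum near 600 could therefore rest on 1 gene, and the libraries with high Ly6c2 were those in which all the members were present at once, together with library 3 of TASTPM Control ST.

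**Figure D3:**
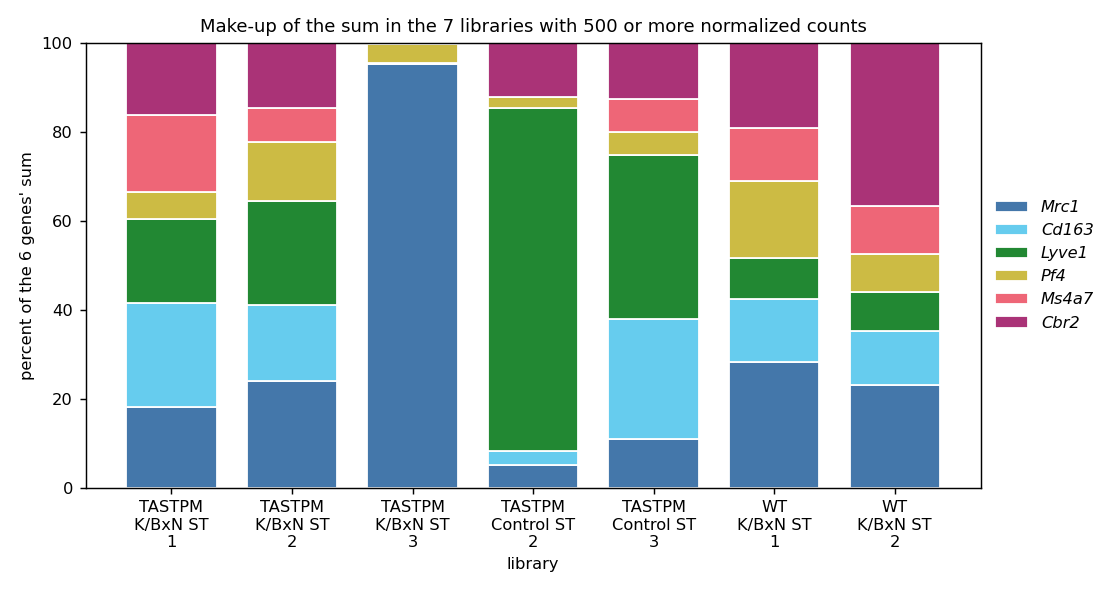
Percent of the members' summed normalized counts taken by each of the 6 genes (bar segments) in the 7 libraries with a sum of at least 500. Mrc1 fills 95.1% of the bar of library 3 of TASTPM K/BxN ST and Lyve1 77.2% of that of library 2 of TASTPM Control ST, while the bars of the 4 libraries with high Ly6c2 hold all 6 genes.

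The first comparison asked how the members differed between K/BxN ST and Control ST in WT. For each of the 6 genes, 2 of 4 K/BxN ST libraries lay above every Control ST library, and the other 2 were at 0 or 1.09, so that the groups overlapped. On the log2(normalized count + 1) scale, in a limma fit to all 4 groups, Cd163 differed by 3.12 (SE 2.37, 95% interval −1.93 to 8.18), Cbr2 by 2.46 (SE 2.46, −2.80 to 7.72), Ms4a7 by 1.71 (SE 2.60), Pf4 by 0.97 (SE 2.42) and Mrc1 by 0.30 (SE 2.21, −4.42 to 5.03). Lyve1 had no read in WT Control ST, and its mean in WT K/BxN ST was at least 41.6-fold higher than 3 reads per library, or at least 18.1-fold without library 1 of WT K/BxN ST. The fitted differences of all 6 were positive with a median of 2.09, or 1.84 with Lyve1 at its bound, beside a median of 0.06 over all 12647 genes tested.

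A gene was called where its adjusted p was below 0.05 and its log2 difference beyond 1 in either direction. By this rule 0 of 6 members were called by limma, and 0 by edgeR and DESeq2. Over all genes limma called 1 (0.00791%), Rarg, which is no member and was named after its value was seen. At an unadjusted p below 0.05, limma had 901 genes with 0 members among them, edgeR 783 genes with 3 members, and DESeq2 1001 genes with 3 members. The count models, which compare means of counts rather than of logs, gave larger differences of 6.78 (edgeR) and 6.90 (DESeq2) for Cd163, 5.397 and 5.398 for Cbr2, 3.47 and 3.46 for Pf4, 2.76 and 2.74 for Ms4a7 and 2.12 and 2.11 for Mrc1. For Lyve1 they gave 9.85 and 9.42, values that depend on how a group without reads is treated, as does the limma value of 3.87 (SE 2.62). The differences rested on the pair of libraries with high Ly6c2. Without those 4 libraries they were −4.06 for Mrc1, −3.12 for Pf4, −2.33 for Ms4a7, −2.19 for Cbr2, −1.03 for Cd163 and 0 for Lyve1, so that 5 of the 6 turned their direction. Leaving out library 1 of WT K/BxN ST alone lowered Lyve1 to 2.41, Cd163 to 1.54, Cbr2 to 0.90 and Ms4a7 to 0.17 and took Pf4 to −0.72, and leaving out library 2 of WT Control ST took Mrc1 to −1.99 and raised Ms4a7 to 3.56. Leaving out library 3 of WT K/BxN ST, which had no read of any member, raised Lyve1 to 5.16, Cd163 to 4.50, Cbr2 to 4.01, Pf4 to 2.34 and Mrc1 to 1.94.

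In TASTPM, the same comparison gave 2.22 for Ms4a7 (SE 2.60), 2.21 for Mrc1 (SE 2.21, −2.52 to 6.94), 1.53 for Pf4 (SE 2.42), −0.01 for Cd163 (SE 2.37), −0.92 for Cbr2 (SE 2.46) and −0.94 for Lyve1 (SE 2.62). The median was 0.76, beside 0.01 over all genes, and 3 of 6 were positive. Of the 4 K/BxN ST libraries, 3 were above every Control ST library for Mrc1, 2 for Pf4, Ms4a7 and Cbr2, 1 for Cd163 and 0 for Lyve1. All 4 were above for 0 of 6 members and below for 0, beside 338 (2.67%) and 346 of all 12647 genes. By limma, edgeR and DESeq2, 0 of 6 members were called, and limma called 0 of all genes (0%), with 533 at an unadjusted p below 0.05, none of them a member. Members at an unadjusted p below 0.05 were also 0 with edgeR and DESeq2, which gave positive differences of 0.79 for Cd163 and 0.75 for Cbr2. Without the 4 libraries with high Ly6c2, Mrc1 kept a positive difference of 1.86, which then rested on the 599 normalized counts of library 3, and the others were between −4.37 for Lyve1 and −0.78 for Pf4. Leaving out 1 library at a time moved Mrc1 between 1.77 and 2.89, and turned the direction of Pf4 (to −0.07 without library 1 of TASTPM Control ST), Lyve1 (to 0.61 without library 2 of TASTPM Control ST), Cbr2 and Cd163 (to 0.73 and 1.77 without library 3 of TASTPM K/BxN ST).

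The interaction asked whether the difference between the sera was itself different in the genotypes. Its estimates were −4.81 for Lyve1 (SE 3.70), −3.38 for Cbr2 (SE 3.48), −3.13 for Cd163 (SE 3.35), 1.91 for Mrc1 (SE 3.13), 0.55 for Pf4 (SE 3.42) and 0.51 for Ms4a7 (SE 3.67). A negative value means a smaller difference in TASTPM than in WT. By limma, edgeR and DESeq2, 0 members were called, and limma called 0 of all genes (0%), with 385 at an unadjusted p below 0.05 and 0 members among them, against 1 member among 330 genes with edgeR and 1 among 402 with DESeq2. The count models turned Pf4 to −1.66 and −1.64 and Ms4a7 to −0.64 and −0.61. Lyve1, Cbr2, Cd163 and Mrc1 kept the sign of the estimate under every alternative tried, while the 95% intervals reached from −12.7 to 3.10, from −10.8 to 4.05, from −10.3 to 4.02 and from −4.78 to 8.59. Leaving out 1 library at a time moved Lyve1 between −7.71 (without library 1 of TASTPM Control ST) and −3.26 (without library 2 of TASTPM Control ST). It moved Cbr2 between −4.93 and −1.73 and Cd163 between −4.51 and −1.35, the lower values without library 3 or library 4 of WT K/BxN ST and the higher ones without library 3 of TASTPM K/BxN ST, and Mrc1 between 0.27 (without library 3 of WT K/BxN ST) and 4.20 (without library 2 of WT Control ST). With edgeR and DESeq2, Mrc1 was at 0.31 and 0.33, Cd163 at −5.98 and −6.11, Cbr2 at −4.65 with both, and Lyve1, without reads in WT Control ST, at −10.67 and −10.23, values that depend on the prior count and are no bound. Pf4 went as low as −1.04 without library 1 of TASTPM Control ST and Ms4a7 to −1.35 without library 2 of WT Control ST. Without the 4 libraries with high Ly6c2 the estimates ran from −4.37 for Lyve1 to 5.91 for Mrc1, with −1.84 for Cd163 and −1.61 for Cbr2.

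**Figure D4:**
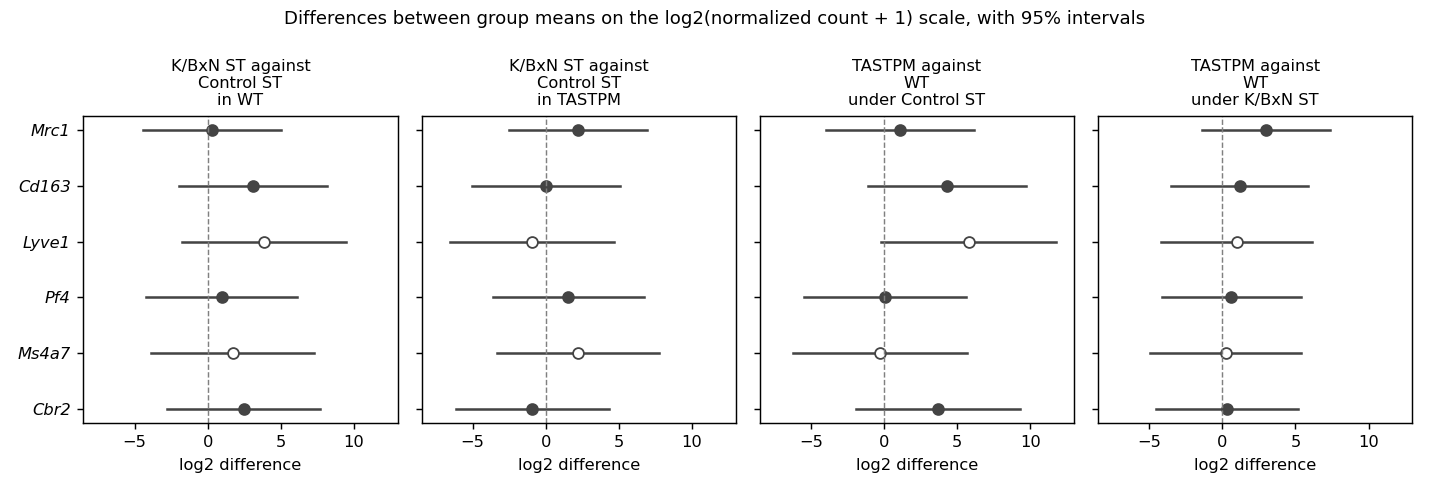
Difference between group means on the log2(normalized count + 1) scale (points) with its 95% interval (lines) from the limma fit, for each gene and comparison; filled points passed the filter on low counts, and open points (Lyve1 and Ms4a7) did not. Each interval drawn includes 0, and the one nearest to leaving it out is that of Lyve1 under Control ST, from −0.19 to 11.8.

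Between the genotypes under Control ST, where no library had high Ly6c2, Cd163 and Cbr2 were higher in each TASTPM library than in each WT library. Their differences were 4.33 (SE 2.53, −1.07 to 9.73) and 3.69 (SE 2.63, −1.93 to 9.31). For Cbr2, library 1 of each group had 20 reads, and only the normalization set these libraries apart (20.9 in TASTPM and 18.7 in WT). Lyve1 was at 476 and 351 normalized counts in 2 of 3 TASTPM libraries and at 0 reads in the third and in all of WT, and its TASTPM mean was at least 101-fold higher than 3 reads per library, or at least 64.2-fold without library 2 of TASTPM Control ST. Mrc1 (1.11, SE 2.37), Pf4 (0.07, SE 2.59) and Ms4a7 (−0.29, SE 2.78) overlapped between the genotypes. The median over the members was 2.40, also with Lyve1 at its bound, beside 0.04 over all genes. Of all 12647 genes, 629 (4.97%) had every TASTPM Control ST library above every WT Control ST library, beside 2 of the 6 members. By limma, edgeR and DESeq2, 0 of 6 members were called, and limma called 0 of all genes (0%), with 704 at an unadjusted p below 0.05, none of them a member. Of the members, 2 were at an unadjusted p below 0.05 with edgeR (583 genes in all) and 2 with DESeq2 (724 genes).

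These differences under Control ST kept their sign under every alternative for Cd163, Cbr2 and Lyve1. Leaving out a library could not turn it, because Cd163 and Cbr2 did not overlap between the genotypes and Lyve1 had no read in WT. The 4 libraries with high Ly6c2 are in neither group, so that leaving them out could not change the estimates. Leaving out 1 library at a time gave 3.01 to 5.13 for Cd163, 2.59 to 4.74 for Cbr2 and 4.23 to 8.68 for Lyve1, the lowest for Lyve1 being without library 2 of TASTPM Control ST. Mrc1 turned to −0.41 with edgeR, −0.42 with DESeq2 and −1.19 without library 2 of WT Control ST, Pf4 to −1.49 without library 1 of WT Control ST, and Ms4a7 to 1.57 without library 2 of WT Control ST. Of the dendritic cell markers, Zbtb46 was separated in the same way, with 125, 153 and 181 normalized counts in TASTPM and 12.2, 0.838 and 28.7 in WT, while Flt3 and Cd209a overlapped and Clec9a had no read in either group. The shares of 3 lists did not overlap between the genotypes under Control ST. Microglia markers took 6.83% to 8.12% of the reads in TASTPM and 8.27% to 8.76% in WT, dendritic cell markers 0.000809% to 0.00134% and 4.94e-06% to 0.000289%, and Ms4a family genes, a list that holds Ms4a7, 0.0404% to 0.0502% and 0.0308% to 0.0350%. The shares of the other lists overlapped. The 6 members took 0.000413% to 0.00576% in TASTPM and 0.000534% to 0.000862% in WT. The other border-associated macrophage genes took 0.145% to 0.158% and 0.146% to 0.156%, and classical monocyte markers 0.00300% to 0.00428% and 0.00192% to 0.00315%. The part of these lists in the result was not tested.

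Under K/BxN ST, 0 of 6 members had every TASTPM library above every WT library or below it, beside 147 (1.16%) and 85 of all 12647 genes. The estimates of TASTPM against WT were 3.01 for Mrc1 (SE 2.05, −1.36 to 7.39), 1.20 for Cd163 (SE 2.19), 0.97 for Lyve1 (SE 2.42), 0.63 for Pf4 (SE 2.24), 0.31 for Cbr2 (SE 2.28) and 0.22 for Ms4a7 (SE 2.41), with a median of 0.80, and all 6 were positive. The means of the normalized counts, in contrast, were lower in TASTPM than in WT for Mrc1, Pf4, Cd163, Ms4a7 and Cbr2. For each of these genes the WT group held both the highest of the 8 libraries and 2 libraries at 0 or 1.09. Without the 4 libraries with high Ly6c2 the estimates were 1.11 for Ms4a7 to 7.02 for Mrc1, from 2 libraries a group. Without library 3 of WT K/BxN ST, Cd163, Lyve1, Pf4, Cbr2 and Ms4a7 turned negative, from −0.18 to −1.25. By limma, edgeR and DESeq2, 0 of 6 members were called, and limma called 0 of all genes (0%), with 241 at an unadjusted p below 0.05. Members at an unadjusted p below 0.05 were 0 with limma, edgeR and DESeq2, and the count models turned Cbr2 to −1.39 (both), Pf4 to −1.32 and −1.31, Ms4a7 to −0.55 and −0.54, Mrc1 to −0.11 and −0.09 and Cd163 to −0.08 and −0.07.

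A list of 20 other border-associated macrophage genes was read beside the members. Of these, 15 were in the table and 11 had enough reads to be tested, and limma called 0 higher and 0 lower in any comparison. In WT, 7 of 11 had a positive difference between the sera, with a median of 1.24, and in TASTPM 7 of 11, with a median of 0.10. The 4 most abundant showed different courses. None of the 4 is particular to these macrophages, since microglia or monocytes also make them. Hpgd, a prostaglandin-degrading enzyme (5865 to 16413 normalized counts), Stab1, a scavenger receptor (1877 to 6379), and Nrp1, a co-receptor for semaphorins and VEGF (1437 to 4310), were present in all 14 libraries, including those with no read of most members. The 4 lowest values of Hpgd (5865, 9065, 9245 and 11127) and the 3 lowest of Stab1 (1877, 1887 and 1907) were nevertheless in libraries with high Ly6c2. F13a1, the A subunit of coagulation factor XIII and also a monocyte gene, held 32194, 17938, 4.78 and 11.99 normalized counts after K/BxN serum among WT libraries and 30878, 10358, 15.3 and 62.05 among TASTPM libraries. F13a1 thus followed the libraries with high Ly6c2, and outside them its highest value, 969, was in library 3 of TASTPM Control ST, which also had all 6 members.

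Some less abundant genes of the same list were picked after their values had been seen. Clec10a, a lectin of macrophages and dendritic cells, had 964 and 568 normalized counts in libraries 1 and 2 of WT K/BxN ST and 1300 and 271 in those of TASTPM K/BxN ST, against at most 40.7 elsewhere. Folr2, a folate receptor of resident macrophages, was at 108 and 47.8 in libraries 1 and 2 of WT K/BxN ST, at 26.0 and 22.8 in those of TASTPM K/BxN ST, and at 77.2 in library 3 of TASTPM Control ST. Siglec1 and Dab2 were at 173 and 632 in library 3 of TASTPM K/BxN ST, the library in which Mrc1 was at 599 and Cd163 at 0. For Siglec1 this was its highest value of the 14. Maf, a transcription factor of macrophages and microglia, went the other way, with 942, 1957, 1385 and 1386 in the libraries with high Ly6c2 and 1882 to 3384 in the other 10.

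**Figure D5:**
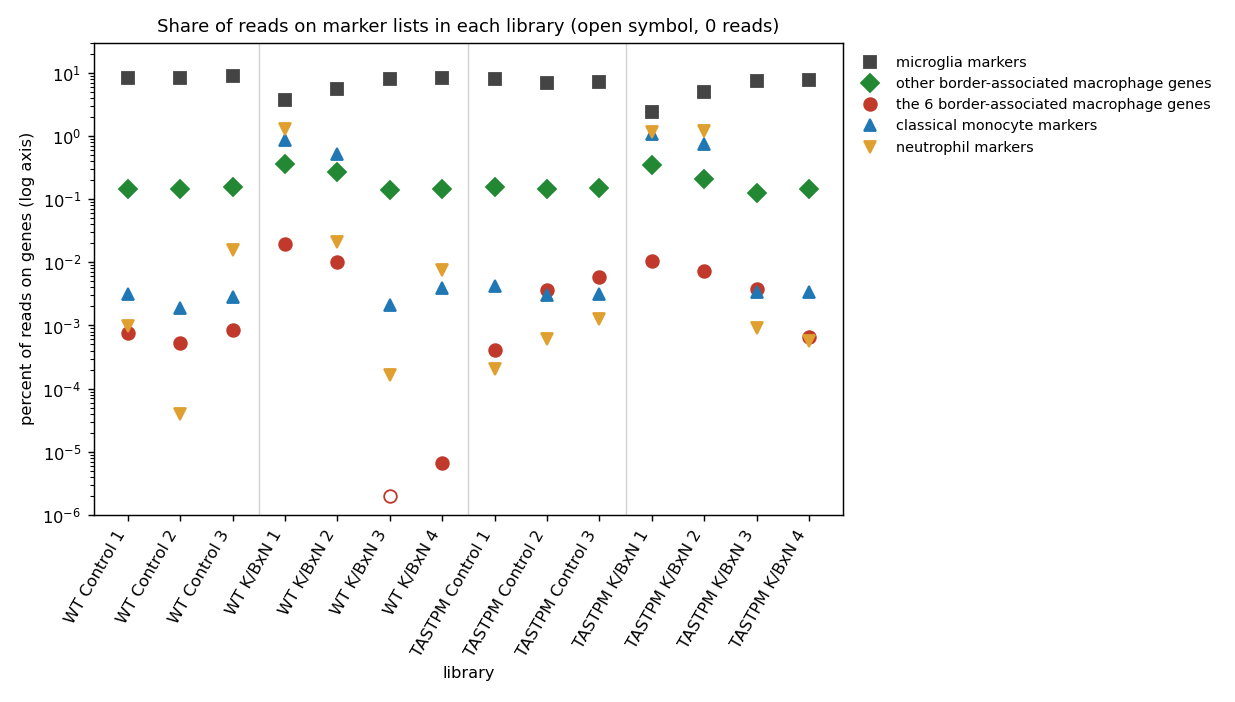
Percent of the reads on genes that fell on each marker list (log axis) in each of the 14 libraries, by group, with an open symbol for 0 reads. Classical monocyte markers take 0.528% to 1.08% in libraries 1 and 2 of both K/BxN ST groups and 0.00192% to 0.00428% in the other 10, and the 6 genes have their highest shares in the same 4 libraries.

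Markers of some other cells were highest in the 4 libraries with high Ly6c2, but not in every library with many counts of the members. Libraries 2 and 3 of TASTPM Control ST, with members' sums of 617 and 947, had 0.00300% and 0.00313% of their reads on classical monocyte markers. Library 3 of TASTPM K/BxN ST, with a sum of 630, had 0.00344%. The 10 classical monocyte markers, led by Chil3, Ly6c2, Ccr2 and Hp, took 0.528% to 1.08% of the reads in the 4 libraries with high Ly6c2 and 0.00192% to 0.00428% in the other 10. The 10 neutrophil markers, led by the granule and S100 genes Ngp, S100a8, S100a9 and Ltf, took 1.18% to 1.29% in 3 of those 4 libraries. In the remaining one, library 2 of WT K/BxN ST, they took 0.0213%, close to the highest value of 0.0159% among the other 10, while the members summed to 1695 normalized counts there. Of the neutrophil markers there, Mmp8, named after its value was seen, was at 3245 normalized counts and S100a8, the next, at 143. Dendritic cell markers, 4 of 6 in the table and led by Cd209a, Flt3 and Zbtb46, took 0.00462% to 0.0467% against at most 0.00134%. Cd209a (440 to 6678 normalized counts against at most 2.18), Flt3 (243 to 923 against at most 127) and Clec9a (11.7 to 24.7 against 0) were higher there. Zbtb46 was not, with 56.2 and 59.9 in libraries 1 and 2 of TASTPM K/BxN ST and 132 and 4.43 in those of WT K/BxN ST. In the other 10 it ranged from 0.838 to 223. The share of endothelial markers, 5 of 8 in the table and led by Pecam1, Prox1 and Kdr, did not separate the libraries (0.00219% to 0.00453% against 0.00227% to 0.00483%). Flt1, the next of this list, did, at 82.2 to 202 normalized counts in the 4 libraries with high Ly6c2 and 0 to 4.51 in the other 10. None of 8 fibroblast and mural cell markers was among the genes of the table. Whether the members' transcripts came from monocyte-derived cells, from border-associated macrophages or from microglia was not tested.

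The genes most like each of the 4 members that passed the filter, in their order over the 14 libraries, were found as a description. Spearman's rho among all genes tested was used, and no such search was made for Lyve1 and Ms4a7. For Cbr2 they were F13a1 (0.95), Adgre5 (0.94) and Gm6421 (0.93), for Cd163 Gsto1 (0.92), Gen1 (0.91) and Tfec (0.90), for Pf4 Gsdmd (0.93), Phf5a (0.93) and Abtb2 (0.92), and for Mrc1 Ncbp1 (0.94) and Prelid3b (0.88). No member was among the 3 genes most like any of these 4. The points share library depth and the 4 libraries with high Ly6c2, and the closest of so many genes is high by selection.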

How the data were processed

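Cells sorted from 6-month-old mice were amplified with the SMART-Seq kit. Per the labels and the study's methods, the authors aligned reads to GRCm39 with HISAT2 2.1, counted them per gene with featureCounts 1.5.2 and normalized with DESeq2. The authors deposited these normalized counts, a signal in which the reads of a gene are divided by 1 factor per library. All values (100%) were whole multiples of 1 read within 0.01, and these reads were used for filters and count models. Of 14336 entries, 7 repeats were dropped. TASTPM K/BxN ST libraries carry the numbers of the labels, and the others are numbered in the order of the deposited columns.

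The 12645 genes that reached 10 reads in 7 or more libraries, and the 2 members that did not, entered 1 limma fit (version 3.58.1, R 4.3.3) of the 4 groups on log2(normalized count + 1), with a trend in the prior variance. Because the unit is a signal, edgeR 4.0.16 and DESeq2 1.42.0 on the recovered reads were alternatives, beside other scalings, pseudocounts, filters and the omission of libraries. The adjustment of p was that of Benjamini and Hochberg across all genes in the fit. The code was tested on simulated data. The members and the lists, written by hand, were chosen with earlier results of these data known. Genes are named by a rule: the members, Ly6c2, up to 4 of the most abundant genes of a list, genes called, and the 3 genes most like each member that passed the filter. Genes outside it are marked in the text as chosen after their values were seen. A few genes that this rule names are not reported here. Positions are from GENCODE M39 and promoters from RefSeq. The intervals of log2 differences come from the spread between libraries. Wilson intervals and floors cover counting error only, since reads were not tagged as molecules.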

Additional observations from a re-analysis of the deposited data

Results flagged for a closer look

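In 2 of 28 groups of 4 values examined for a library apart from its group (by Dixon's test of the gap to the next library, which chance passes in about 1 in 20 groups), 1 library stood apart. Library 1 of WT K/BxN ST had 1.29% of its reads on neutrophil markers, and the gap to the next library was 0.984 of the range of the group. The same library had the highest sum over the border-associated macrophage genes, 3343 normalized counts. Library 1 of TASTPM K/BxN ST had 0.0467% of its reads on dendritic cell markers, with a gap of 0.924 of the range, and a sum over the 6 genes of 1753. None of the 6 genes themselves was flagged in either K/BxN ST group.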

How the results depend on the processing

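No member was called in any comparison under any alternative run, and this count was therefore 0 throughout. The number of genes called over the whole table depended on the tool. Between the sera in WT it was 0 with edgeR, with a pseudocount of 5, with WT alone and without the 4 libraries with high Ly6c2, 2 without a trend, 127 with DESeq2 on the same genes and 275 with DESeq2 without a filter. For TASTPM it was 16 and 88 with DESeq2 on the same genes and without a filter, for the genotypes under Control ST 41 and 84 (and 1 without the 4 libraries with high Ly6c2), and for the interaction 12 and 36. Leaving out 1 library at a time gave 0 to 17 genes in WT, 0 to 1 in TASTPM, 0 to 11 between the genotypes under Control ST and 0 to 3 for the interaction. The causes were not tested. Of the 792 log2 differences of members under alternatives, 19 moved by more than the residual SD. That SD was wide, from 3.42 for Mrc1 to 3.97 for Lyve1 on the log2 scale, and smaller moves often turned the direction of a difference. Many alternatives left out a library of a group outside the comparison, which cannot change the estimate. The count of 19 is therefore no measure of stability. No paired analysis was possible because the groups share no replicate numbers in the labels. With 3 or 4 libraries per group, the 95% interval of each member includes 0 in each comparison, and counts at or below 3 reads lie at the limit of detection.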

Other observations

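Other genes of the Ms4a family, to which Ms4a7 belongs, were read from a hand-written list. Of 13 such genes, 7 were in the table and 5 were tested. limma called 0 of them in any comparison, and all 5 had a positive difference between the sera in WT (median 2.29) and in TASTPM (median 1.501). Ms4a6d and Ms4a6b were present in every library, at 2854 to 8561 and 1722 to 9969 normalized counts. Ms4a4c, which is also on the list of classical monocyte markers, was at 5139 to 11170 in the 4 libraries with high Ly6c2 and at 114 to 413 in the other 10. Ms4a4a, also on the list of border-associated macrophage genes, was at 3673 to 10607 in those 4 libraries and at 0 to 242 in the others. These genes lie close together on chromosome 19, and the level of Ms4a7 in the same libraries was 95.1 to 400 against 0 to 69.1.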
